A study of Mus musculus with 54 samples.

Results

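The proteins of the mitochondrial ribosome that carry Mrpl and Mrps symbols were examined in whole mouse liver across 3 genotypes and 6 times of day. Members were all rows of the deposited expression table whose symbol starts with Mrpl or Mrps followed by a digit and whose mean was at least 1 FPKM (fragments mapped to a gene, scaled by its transcript length and by the size of the library). The rule gave 77 genes of the 24346 in the table, 48 named for the large subunit (Mrpl) and 29 for the small subunit (Mrps). No matching row was under the minimum, and all 77 were among the 10932 genes tested. The member with the lowest mean, Mrpl19, stood at 3.57 FPKM, so the minimum of 1 FPKM removed none.

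RNA from 54 livers was sequenced, 3 livers in each of 18 groups. RE mice carried the Bmal1 gene silenced by a floxed STOP together with Syt10-Cre, which restored Bmal1 in the suprachiasmatic nucleus, the site of the central clock in the brain. KO mice carried the floxed STOP without Cre, and WT mice expressed Bmal1 in all tissues. Livers of each genotype were taken at ZT0, ZT4, ZT8, ZT12, ZT16 and ZT20 (hours after lights on). Age, sex, feeding and light conditions were not given in the sources used here, and the labels do not say whether litters or collection days were shared. The p values set each difference against the spread between these livers and treat the livers as independent, which could not be checked.

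Bmal1 (listed as Arntl) is the activator of the core circadian clock. Mitochondrial ribosomes translate the few messenger RNAs of the mitochondrial genome, which encode subunits of the respiratory chain and ATP synthase. All proteins of these ribosomes are encoded in the nucleus, made in the cytosol and imported, and they assemble with ribosomal RNA made inside the mitochondrion. Some symbols follow older usage: the products of Mrps18a and Mrps30 are now placed in the large subunit, and the product of Mrps36 is now assigned to the 2-oxoglutarate dehydrogenase complex.

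Arntl itself was listed at a lowest, median and highest FPKM of 7.60, 11.3 and 15.5 in RE livers, 9.76, 12.2 and 14.2 in KO livers, and 0.202, 5.19 and 10.3 in WT livers. A whole-gene value does not show whether the transcript passes the STOP, so it does not check the genotype labels. The sum of FPKM over all genes had a median of 710581 in RE livers, 674783 in KO livers and 664779 in WT livers. With group means removed, the members' mean log2 level rose with the log2 of this sum. Pearson r was 0.56 in RE livers, 0.76 in KO livers and 0.87 in WT livers. The part of this sum in the members' level differences was not tested. The 8 hepatocyte markers were detected in every genotype, with summed levels of 22589 to 34837 FPKM in RE livers, 21354 to 27489 in KO livers and 24025 to 33586 in WT livers. One WT liver at ZT0 (liver 0) stood apart by gut epithelium markers, among them Lgals4 at 28.6 FPKM and Muc13 at 9.16 FPKM, and the level counts are also given without it. RE ZT16 liver 2 stood apart by the pancreas gene Cela2a, at 22.4 FPKM against a median of 0.812 over all livers. The other pancreas markers, Cpa1, Ctrb1, Pnlip and Cel, were at no more than 0.351 FPKM in any liver. RE ZT16 liver 2 also had the highest summed hepatocyte markers (34837 FPKM) and the lowest summed gut epithelium markers in RE livers (20.5 FPKM). Because the RNA came from whole liver, fewer cells of a type and less RNA per cell cannot be told apart.

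The members covered a wide range of levels. Mrpl52, a large-subunit protein without a bacterial counterpart, averaged 203 FPKM over the 54 livers, with single livers between 138 and 341 FPKM. It was followed by Mrps21 at 153 FPKM, Mrpl12 at 141 FPKM, Mrpl14 at 126 FPKM and Mrpl30 at 117 FPKM. Mrpl12 belongs to the stalk that recruits translation factors. At the low end stood Mrpl19 at 3.57 FPKM, Mrps25 at 4.86 FPKM, Mrpl17 at 8.08 FPKM, Mrpl35 at 8.77 FPKM and Mrpl57 at 10.3 FPKM. The median of the members' mean FPKM was 34.6 for Mrpl genes and 26.3 for Mrps genes. FPKM is a level per transcript length, but its value also depends on the transcript models, for which the sources used here give no annotation.

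The first comparison asked whether mitoribosomal transcripts differed in mean level between RE and WT livers, averaged over the 6 times. Of the 77 members, 48 were higher in RE livers and 0 lower, by limma with Benjamini-Hochberg adjustment over all 10932 genes and a threshold of 0.05. The 48 are 62.3% of the members, beside 45.9% of all tested genes called in either direction and 24.2% called higher, with 21.7% called lower. The median difference of the members was 0.14 on the log2(FPKM + 1) scale, against 0.01 over all tested genes, and single members ran between -0.10 and 0.37. Of Mrpl genes 31 of 48 were higher, and of Mrps genes 17 of 29. Without WT ZT0 liver 0, 49 members were higher, and without RE ZT16 liver 2, 50.

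**Figure D1:**
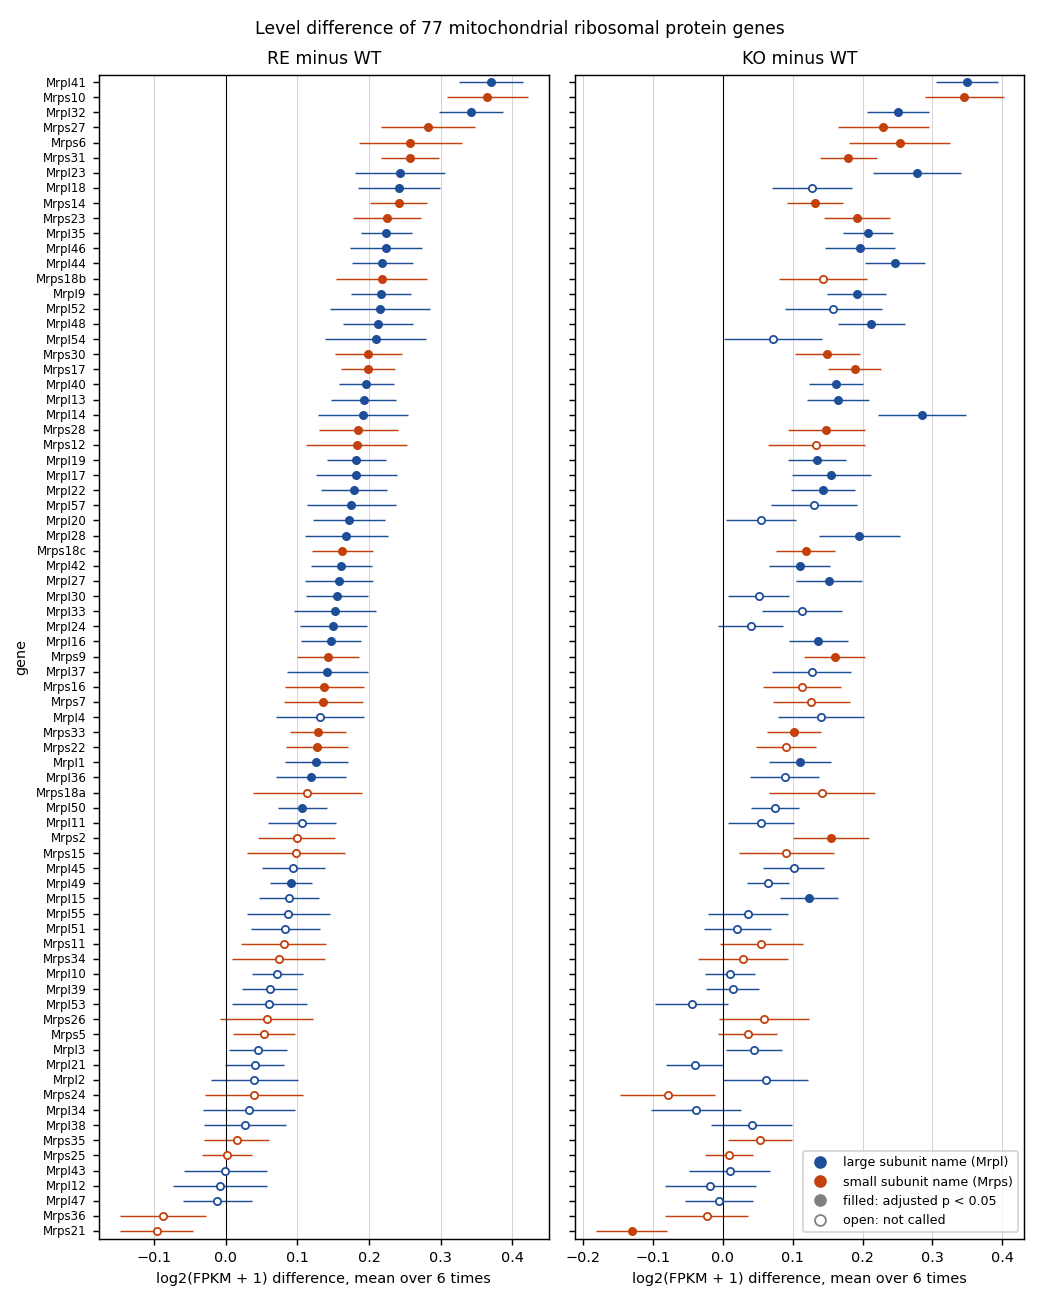
Level differences of all 77 members on the log2(FPKM + 1) scale, RE minus WT and KO minus WT, with bars of 1 SE from limma; filled points passed an adjusted p of 0.05, Mrpl genes are blue and Mrps genes orange. Most points lie right of 0 in both comparisons, at up to 0.37 in RE minus WT, and Mrps21 is the 1 filled point left of 0, in KO minus WT.

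Mrpl41, a large-subunit protein, had the smallest adjusted p. Its FPKM (lowest, median and highest of 18 livers) was 9.04, 12.3 and 15.0 in RE livers, 10.3, 11.7 and 13.4 in KO livers, and 7.98, 8.90 and 11.2 in WT livers. The RE and WT ranges overlapped, but the RE median lay above the highest WT liver. Its RE minus WT difference was 0.37 ± 0.04 (log2, SE; limma adjusted p = 7.83e-09), and its mean was higher in RE livers at all 6 times. The gene lies at chr2:24974117-24975098 on the minus strand (GRCm38). The 250 bases before its start are shown because it led both level comparisons. They come from RefSeq (GRCm38.p6, chr2:24975099-24975348, minus strand) and held none of the 5 motifs searched (GCGCATGC for NRF1, CCGGAAG for ETS factors, AAGATGGC for YY1, the E-box CACGTG, and AGGTCA for ROR and REV-ERB), so nothing is in capitals:
Mrpl41: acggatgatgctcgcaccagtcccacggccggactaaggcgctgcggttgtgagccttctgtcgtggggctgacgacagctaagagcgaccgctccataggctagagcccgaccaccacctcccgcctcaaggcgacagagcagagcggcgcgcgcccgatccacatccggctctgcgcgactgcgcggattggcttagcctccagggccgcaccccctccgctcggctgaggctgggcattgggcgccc

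Mrpl32, a large-subunit protein that a protease of the inner membrane trims before assembly, came next. It was at 33.3, 37.4 and 46.2 FPKM in RE livers, 30.4, 36.02 and 39.2 FPKM in KO livers, and 24.9, 29.4 and 35.97 FPKM in WT livers (lowest, median and highest). The RE median again exceeded the highest WT liver. The difference RE minus WT was 0.34 ± 0.04 (log2, SE; limma adjusted p = 4.19e-08). Its gene spans chr13:14608184-14613165 on the minus strand in GENCODE M21, and RefSeq (GRCm38.p6) places the start further into this span. The letters GCGCATGC occur more than once in a short stretch at chr13:14613095-14613124 (minus strand), which lies before the RefSeq start but inside the first exon of a GENCODE transcript. Capitals mark them:
Mrpl32: GCGCATGCGCaagaggggcctGCGCATGCt

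Mrps10, a small-subunit protein conserved from bacteria, was at 33.1, 47.4 and 55.8 FPKM in RE livers, 39.3, 45.9 and 54.1 FPKM in KO livers, and 29.2, 35.5 and 46.3 FPKM in WT livers. It differed by 0.37 ± 0.06 between RE and WT (log2, SE; limma adjusted p = 1.28e-06). Mrpl35, a large-subunit protein, was at 7.90, 9.23 and 11.5 FPKM in RE livers, 8.15, 9.06 and 11.0 FPKM in KO livers, and 7.15, 7.67 and 8.64 FPKM in WT livers, a difference of 0.22 ± 0.04 (limma adjusted p = 1.74e-06). For both genes the genotypes overlapped, and the RE and KO means were above the WT mean at all 6 times. Mrps31, Mrps14, Mrps17 and Mrpl44 were higher in RE livers by 0.26, 0.24, 0.20 and 0.22 (log2; limma adjusted p = 1.77e-06, 4.36e-06, 3.36e-05 and 4.77e-05). Mrps27 was higher by 0.28 ± 0.07, with a wider spread (adjusted p = 0.000486). Mrpl36 was closest to the threshold among the called members, at 0.12 (adjusted p = 0.0438). Mrpl12, which is abundant, did not pass, at -0.01 (adjusted p = 0.932).

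KO livers were compared with WT livers in the same way. Of the members, 33 were higher in KO livers and 1 was lower. The 33 are 42.9% of members, beside 42.3% of all tested genes called in either direction and 22.1% called higher, and the 1 lower member stands beside 20.2% called lower. The median difference was 0.12 for members and 0.00 over all tested genes (log2), with members between -0.13 and 0.35. Without WT ZT0 liver 0, 37 members were higher and 0 lower. Without KO ZT8 liver 1, the liver with the lowest mean over members, 43 were higher and 0 lower.

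Mrpl41 led again, at 0.35 ± 0.04 (log2, SE; limma adjusted p = 3.04e-08). Mrps10 followed at 0.35 ± 0.06 (adjusted p = 3.65e-06), Mrpl35 at 0.21 ± 0.04 (6.96e-06), Mrpl44 at 0.25 ± 0.04 (8.01e-06) and Mrpl32 at 0.25 ± 0.04 (1.48e-05). Mrps17 and Mrpl9 were each 0.19 higher (adjusted p = 7.71e-05 and 0.000292). Mrpl44 is a large-subunit protein with an RNase III-like domain. Larger differences with wider spread were seen for Mrpl14 (0.29, adjusted p = 0.000288) and for Mrpl23 (0.28, adjusted p = 0.000396), whose product lines the exit of the peptide tunnel. Mrpl14 stood at 97.8, 121 and 176 FPKM in RE livers, 104, 136 and 171 FPKM in KO livers, and 94.5, 109 and 130 FPKM in WT livers (lowest, median and highest).

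Mrps21, a small-subunit protein and the second most abundant member, was the 1 member called lower. It was at 116, 146 and 180 FPKM in RE livers, 109, 147 and 171 FPKM in KO livers, and 130, 161 and 199.5 FPKM in WT livers. The 3 genotypes overlapped over most of their ranges. The KO minus WT difference was -0.13 ± 0.05 (log2, SE; limma adjusted p = 0.0376), and it missed the threshold without the filter on low values and when any of 15 single livers was left out, with a largest adjusted p of 0.0757. The RE minus WT difference of -0.10 did not pass (adjusted p = 0.123).

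**Figure D2:**
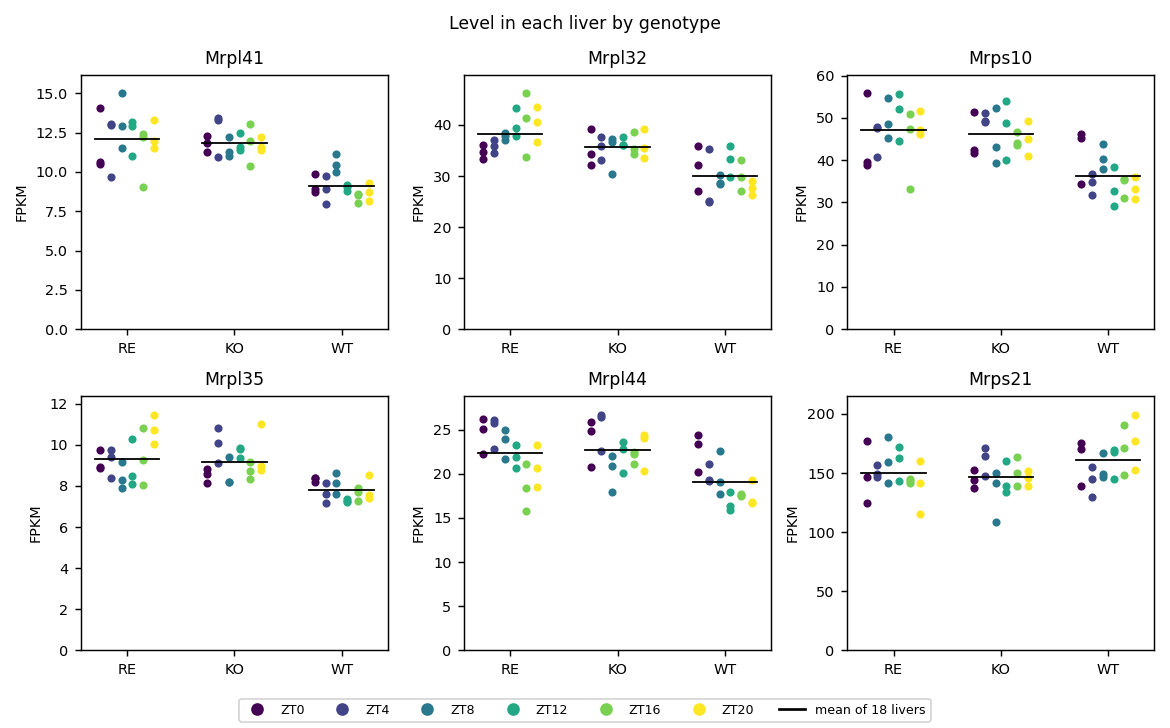
FPKM of 6 members in each liver, by genotype (RE, KO, WT); points are livers coloured by ZT and lines are means of 18 livers. For Mrpl41 and Mrpl32 the median RE liver is above the highest WT liver, whereas for Mrps21 the WT livers lie highest on average with wide overlap.

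Both comparisons use the same WT livers, so an error in those livers would enter both. Between RE and KO livers 0 members were called at the adjusted threshold, beside 0.192% of all tested genes (0.0732% higher and 0.119% lower in RE livers). At an unadjusted p under 0.05 there were 5 of the 77 members, beside 1451 of the 10932 tested genes, which is a larger share. The 5 were Mrps14, Mrpl30, Mrpl24, Mrpl20 and Mrpl32, at 0.09 to 0.12 (log2) higher in RE livers. Their adjusted p values were 0.220 to 0.370 by limma, the tool used for this comparison. Side by side, Mrpl41 was 0.37 above WT in RE livers and 0.35 above WT in KO livers, and Mrps10 was 0.37 and 0.35 above.

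The members' median difference from WT varied between the times sampled. At ZT4 the members' median difference was 0.20 in RE livers, with 75 of 77 above WT, and 0.30 in KO livers, with all 77 above WT. At ZT16 it was 0.04 in RE livers (45 members above) and 0.13 in KO livers (62 above). At ZT8 it was 0.17 in RE livers (69 above) and -0.04 in KO livers (32 above). At ZT0 it was 0.11 in RE livers (64 above) and 0.02 in KO livers (46 above). At ZT12 it was 0.17 in RE livers (63 above) and 0.09 in KO livers (56 above). At ZT20 it was 0.14 in RE livers (64 above) and 0.15 in KO livers (70 above). Of all tested genes, between 48.1% (KO livers at ZT8) and 53.1% (RE livers at ZT16) were above WT at these times. Livers of low member mean bear on the values at ZT8 and ZT16. Without KO ZT8 liver 1 the KO median at ZT8 was 0.08, with 54 members above WT, and without RE ZT16 liver 2 the RE median at ZT16 was 0.11, with 54 members above WT. Both values were added after the data were seen. The median differences at single times are descriptions of 3 livers against 3 and were not tested. At ZT4 both comparisons used the same 3 WT livers, whose mean over members was the lowest of the WT groups (4.97, log2).

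Summed marker levels of some other cell types also differed between genotypes. Summed FPKM of the 5 bile duct markers ran between 20.7 and 149 in RE livers, between 26.0 and 171 in KO livers and between 18.1 and 127 in WT livers, with medians of 64.2, 68.9 and 27.5. Summed FPKM of the 5 Kupffer cell markers had medians of 45.6 in RE livers, 61.3 in KO livers and 73.0 in WT livers, with ranges of 26.8 to 112, 35.6 to 129 and 56.5 to 128. The 7 gut epithelium markers summed to 20.5 to 154 in RE livers, 41.4 to 117 in KO livers and 81.2 to 201 in WT livers, and 1 of them was at 0 in all KO livers. The bile duct sum was mostly Spp1, with a median of 41.7 FPKM over all livers, against 1.44 for Krt19, 0.756 for Krt7, 0.427 for Epcam and 2.24 for Sox9. The gut epithelium sum was mostly Fabp2, with a median of 94.0 FPKM, and Lgals4 came next at 2.82 FPKM. These 2 sums therefore do not show that a whole marker set moved. None of the bile duct or Kupffer cell markers was at 0 in all livers of a genotype. Their part in the members' differences was not tested.

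Transcript length also moved with the level differences. The members are short: the longest coding transcript per gene in GENCODE M21 had a median of 1316 bases, against 2968 bases over tested genes. The 2553 shortest of the 10207 tested genes with a length included 52 of the 77 members and had a median difference of 0.05 for RE minus WT and 0.04 for KO minus WT. The 2552 longest had -0.02 and -0.04. The members' medians of 0.14 and 0.12 lie above those of the shortest genes, and the part of length in the result was not tested.

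The second question was whether members followed a 24 h rhythm in each genotype. A 24 h cosine was tested over the 6 time means with limma's moderated F test, and its amplitude is the log2 distance between mean and peak. In RE livers 37 members were called rhythmic (48.1%, beside 46.8% of all tested genes), 23 Mrpl and 14 Mrps. In KO livers 0 members were called, beside 0.0366% of all tested genes. There 8 of the 77 had an unadjusted p under 0.05, beside 1301 of the 10932 tested genes, which is a larger share. The 8 were Mrps25, Mrps14, Mrps35, Mrps9, Mrps24, Mrpl43, Mrps26 and Mrpl42. In WT livers 14 were called (18.2%, beside 34.8% of all tested genes). Without RE ZT16 liver 2, 30 members were called in RE livers. The share in RE livers was thus close to the background, and the share in WT livers was below it.

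The counts in RE and WT livers depend on the spread used. The fit pools the spread of all genotypes, and the members' median SD between livers of a group was 0.17 in RE, 0.15 in KO and 0.12 in WT livers (log2). With each genotype fitted on its own libraries, 14 members were called in RE livers (28.4% of all tested genes) and 23 in WT livers (48.4% of all tested genes), so the order of the counts turned round, and both shares lay below the background. Amplitudes do not change between these fits. The members' median amplitude was 0.13 in RE livers, 0.07 in KO livers and 0.09 in WT livers, against 0.16, 0.08 and 0.14 over all tested genes.

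Mrps27, a small-subunit protein with pentatricopeptide repeats that bind RNA, had the largest rhythm. In RE livers it was at 30.9, 28.7 and 34.5 FPKM at ZT0, 27.7, 25.2 and 23.0 at ZT4, 24.5, 18.7 and 15.0 at ZT8, 14.4, 18.3 and 15.6 at ZT12, 23.0, 19.5 and 14.1 at ZT16, and 29.3, 21.7 and 27.9 at ZT20. The ZT0 livers all stood above the ZT12 livers by more than 10 FPKM. Its amplitude in RE livers was 0.45, with a peak at ZT24.0 (log2; limma adjusted p = 8.83e-06). Mrps27 shares 506 exonic bases with 6430562O15Rik on the opposite strand in GENCODE M21. Whether the counting used strand is not given in the sources used here.

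In KO livers Mrps27 was at 25.5, 23.0 and 19.6 FPKM at ZT0 and 17.2, 24.5 and 21.9 FPKM at ZT12, which overlap. In WT livers it was at 24.0, 21.0 and 16.4 FPKM at ZT0 and 14.1, 15.3 and 14.3 FPKM at ZT12, so the ZT0 livers were higher there too, by less. Its rhythm did not pass in KO livers (adjusted p = 0.571) or in WT livers (adjusted p = 0.229).

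Mrps22, a small-subunit protein whose human gene is mutated in a mitochondrial disease, was called in both RE and WT livers. In RE livers it was at 27.8, 24.1 and 26.3 FPKM at ZT20 and at 19.7, 16.5 and 17.6 FPKM at ZT8. In WT livers it was at 23.4, 23.3 and 22.3 FPKM at ZT0 and at 14.8, 16.3 and 16.7 FPKM at ZT12. The high and low livers did not overlap in either genotype. These times lie near the fitted peak and trough of a gene named for its rhythm, so the separation adds no further support. The amplitude was 0.24 with a peak at ZT21.0 in RE livers (limma adjusted p = 0.000136) and 0.21 with a peak at ZT23.5 in WT livers (limma adjusted p = 0.000836).

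Mrpl15, a large-subunit protein conserved from bacteria, peaked at ZT20.4 in RE livers (amplitude 0.25, limma adjusted p = 7.02e-05) and at ZT18.0 in WT livers (0.17, 0.00460). Mrps26, a small-subunit protein, peaked at ZT7.25 in RE livers (0.27, adjusted p = 0.00348) and ZT8.25 in WT livers (0.28, adjusted p = 0.00333). Its WT livers were at 25.6, 23.2 and 24.2 FPKM at ZT8 and at 17.4, 13.9 and 13.0 FPKM at ZT20. These did not overlap, at times again near the fitted peak and trough. Mrpl44 peaked at ZT4.13 in RE livers (0.19, adjusted p = 0.00133) and ZT2.25 in WT livers (0.17, adjusted p = 0.00733). Mrps9 in WT livers peaked at ZT7.18 (0.19, adjusted p = 0.00252) and Mrpl36 at ZT21.4 (0.18, adjusted p = 0.0137), and Mrpl36 missed the threshold with an F test over all 6 times (adjusted p = 0.0873). Mrpl2, whose product lies near the peptidyl transferase centre, peaked at ZT6.16 in RE livers (0.27, adjusted p = 0.00225) and ZT7.53 in WT livers (0.21, adjusted p = 0.0252).

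Others were called in 1 genotype. In RE livers these included Mrpl19 (0.18, ZT18.4, limma adjusted p = 0.00254), Mrpl10, a protein of the stalk base (0.15, ZT5.22, 0.00299), and Mrps12, a protein of the decoding site (0.29, ZT4.38, 0.00357). In WT livers they included Mrpl22 (0.19, ZT1.60, limma adjusted p = 0.00427) and Mrps25 (0.13, ZT23.5, 0.0130). The largest amplitudes in KO livers, none called, were 0.18 for Mrps24, 0.17 for Mrps26 and 0.15 for Mrpl43, with adjusted p values of 0.379, 0.412 and 0.395. Of the members 11 (14.3%, beside 20.4% of all tested genes) were called in both RE and WT livers, 26 (33.8%, beside 26.4%) in RE livers alone and 3, Mrpl22, Mrps25 and Mrpl3 (3.90%, beside 14.3%), in WT livers alone. With each genotype fitted on its own libraries the counts were 6 in both (beside 17.8% of all tested genes), 8 in RE livers alone (beside 10.6%) and 17 in WT livers alone (beside 30.5%).

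**Figure D3:**
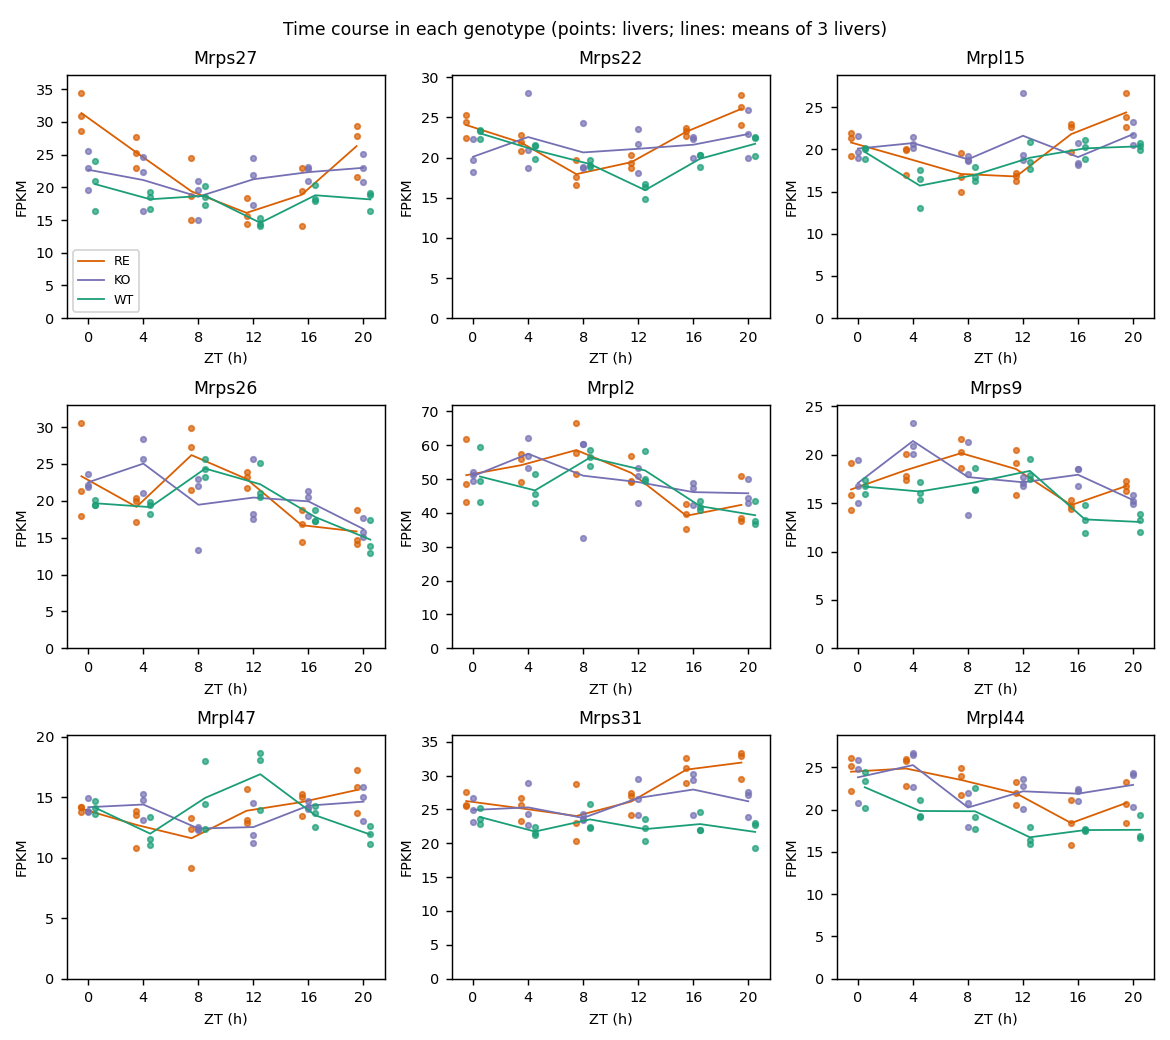
FPKM of 9 members by ZT in RE, KO and WT livers; points are livers and lines join means of 3. Mrps27 has its widest daily range in RE livers, at up to 34.5 FPKM at ZT0, and Mrpl47 peaks in WT livers at ZT12, when RE and KO livers are near their other values.

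In RE livers most peaks fell in the windows on either side of ZT0. Of the 37 members called in RE livers, 17 peaked between ZT0 and ZT6 (45.9%, against 29.7% of all genes called rhythmic), 7 between ZT6 and ZT12 (18.9% against 21.1%), 1, Mrpl18, between ZT12 and ZT18 (2.70% against 28.4%), and 12 between ZT18 and ZT24 (32.4% against 20.9%). Of the 14 called in WT livers, 2 peaked between ZT0 and ZT6 (14.3% against 24.5%) and 6 between ZT6 and ZT12 (42.9% against 26.1%). Between ZT12 and ZT18 there was 1, again Mrpl18 (7.14% against 24.3%), and 5 peaked between ZT18 and ZT24 (35.7% against 25.1%). RE livers had their lowest group mean over members at ZT16 (5.06, log2), where RE ZT16 liver 2 stood at 4.96. The windows were not counted without that liver. Members also vary together between livers, so their peaks are not separate observations. The low number between ZT12 and ZT18 is a description of the called members, and no test was made of it. In WT livers the window with most was ZT6 to ZT12, among only 14 members, and this was not tested either. Both subunits were present in both windows beside ZT0 in RE livers, with 10 Mrpl and 7 Mrps genes between ZT0 and ZT6 and 8 Mrpl and 4 Mrps genes between ZT18 and ZT24.

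**Figure D4:**
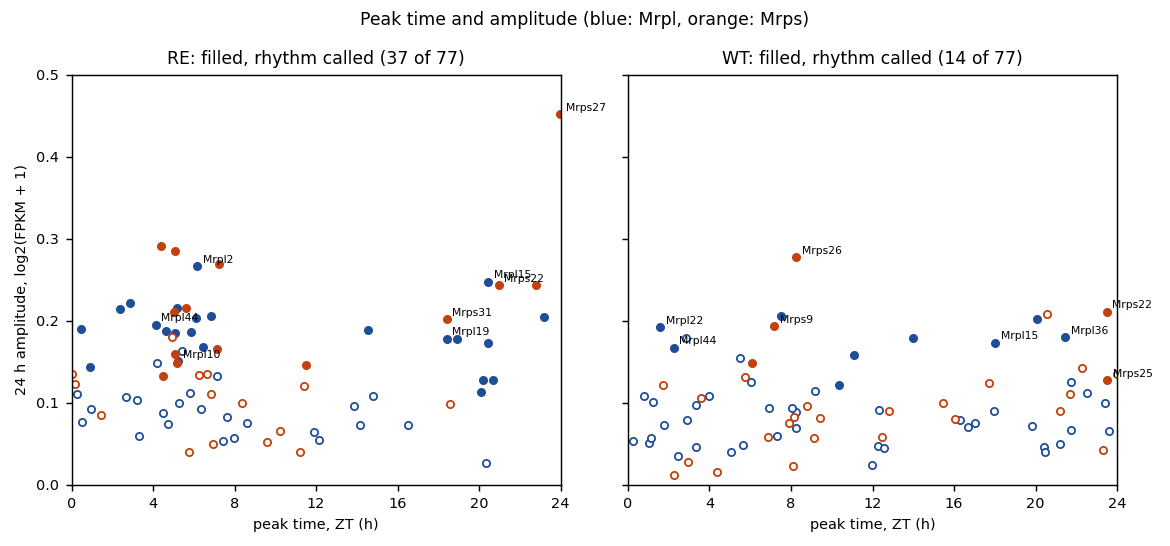
Peak time (ZT, hours) against 24 h amplitude (log2) of each member in RE and WT livers; filled points passed an adjusted p of 0.05, and the 8 members of smallest adjusted p are named. In RE livers 1 called member, Mrpl18, peaks between ZT12 and ZT18.

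Rhythms were then compared between genotypes directly, by the size of the difference between the fitted cosines. Between RE and WT livers 3 members differed (3.90% of members, beside 14.1% of all tested genes), between KO and WT livers 1 (beside 9.06%), and between RE and KO livers 1 (beside 3.07%). These shares are below the background, so most of the members called in 1 genotype alone were not shown to differ between genotypes.

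Mrpl47, a large-subunit protein at the tunnel exit, differed from WT in both RE and KO livers. At ZT12 it was at 13.1, 15.7 and 12.9 FPKM in RE livers, 11.3, 14.5 and 11.8 FPKM in KO livers, and 18.1, 14.0 and 18.7 FPKM in WT livers. At ZT20 it was at 17.2, 13.7 and 15.9 FPKM in RE livers, 15.9, 15.0 and 13.0 FPKM in KO livers, and 11.2, 12.6 and 12.0 FPKM in WT livers. WT livers were thus lowest at ZT20, with no overlap, and 2 of the 3 were highest at ZT12. The peak was at ZT18.9 in RE livers and ZT11.1 in WT livers, and the rhythm difference was 0.29 ± 0.07 for RE versus WT (log2, SE; limma adjusted p = 0.00999) and 0.27 ± 0.07 for KO versus WT (adjusted p = 0.0240). The KO versus WT call was lost without KO ZT12 liver 0, WT ZT12 liver 0 or WT ZT12 liver 2. Mrpl47 shares 616 exonic bases with Ndufb5 and 452 with Actl6a in GENCODE M21, and whether the counting used strand is not given in the sources used here.

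Mrps31 differed between RE and WT livers by 0.21 ± 0.06 (log2, SE; limma adjusted p = 0.0260). In RE livers it was at 28.7, 20.3 and 23.0 FPKM at ZT8 and 32.9, 29.5 and 33.4 FPKM at ZT20. In WT livers it was at 25.8, 22.4 and 22.3 FPKM at ZT8 and 19.3, 23.0 and 22.7 FPKM at ZT20. The call was lost under 4 of 64 alternatives, among them leaving out RE ZT8 liver 1, WT ZT8 liver 0 or WT ZT20 liver 0. Mrps27 differed by 0.32 ± 0.09 between RE and WT livers (adjusted p = 0.0441) and by 0.40 ± 0.09 between RE and KO livers (adjusted p = 0.0287). These calls were lost under 26 and 11 of 64 alternatives, with adjusted p values of up to 0.170 and 0.141.

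The 3 paralogs Mrps18a, Mrps18b and Mrps18c descend from 1 bacterial small-subunit protein. By median FPKM Mrps18c stood highest, at 97.8 in RE livers, 92.8 in KO livers and 86.7 in WT livers. Mrps18b stood at 65.5, 60.3 and 54.3 FPKM and Mrps18a at 58.9, 55.3 and 51.4 FPKM in the same order. Mrps18b was higher in RE than in WT livers by 0.22 ± 0.06 (log2, SE; limma adjusted p = 0.00443) and Mrps18c by 0.16 ± 0.04 (adjusted p = 0.00161), and Mrps18a did not pass at 0.11 ± 0.08 (adjusted p = 0.225). In KO against WT livers Mrps18c passed at 0.12 (adjusted p = 0.0211), and Mrps18a and Mrps18b did not, at 0.14 each (adjusted p = 0.133 and 0.0647). The paralogs' differences were not tested against each other.

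In RE livers Mrps18a had a rhythm of amplitude 0.28 with a peak at ZT5.08 (limma adjusted p = 0.00878) and Mrps18c one of 0.15 with a peak at ZT11.5 (adjusted p = 0.0158), and Mrps18b did not pass (0.04, adjusted p = 0.859). None passed in KO livers (adjusted p = 0.868, 0.952 and 0.938) or WT livers (0.819, 0.746 and 0.264, for a, b and c). The Mrps18a call leans on its low livers at ZT16, at 61.1, 45.2 and 26.6 FPKM, and it missed the threshold without the lowest, RE ZT16 liver 2, or with RE libraries alone (adjusted p of up to 0.0868). All 3 promoter windows held CCGGAAG or its reverse, and they differed in the other letters. The Mrps18b window also held the reverse of GCGCATGC, the Mrps18c window CACGTG and the Mrps18a window AAGATGGC. Parts of each window are shown to give the paralogs' letters side by side, and in Mrps18b the CCGGAAG match and in Mrps18a the AAGATGGC match lie after the start, outside the stretch printed. Capitals mark CCGGAAG in Mrps18a (chr17:46110754-46110985, plus strand), the reverse of GCGCATGC in Mrps18b (chr17:35916645-35916674, minus strand), and CACGTG followed by the reverse of CCGGAAG in Mrps18c (chr5:100798588-100798617, plus strand), all from RefSeq GRCm38.p6:
Mrps18a: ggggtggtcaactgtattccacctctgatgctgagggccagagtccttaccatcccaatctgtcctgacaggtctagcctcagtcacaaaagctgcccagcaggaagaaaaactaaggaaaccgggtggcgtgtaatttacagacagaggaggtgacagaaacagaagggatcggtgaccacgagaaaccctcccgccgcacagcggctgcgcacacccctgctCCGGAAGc
Mrps18b: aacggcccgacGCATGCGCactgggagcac
Mrps18c: ccccgggtCACGTGaCTTCCGGcccgggaa

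Promoter windows of 250 bases before to 50 after the start were found for 68 of the 77 members, and both strands were searched. CCGGAAG was in 24 windows (35.3%), against 19.1% of 8389 tested genes and 9.12% of all 27025 windows. AAGATGGC was in 12 (17.6%, against 5.07% and 2.88%) and GCGCATGC in 8 (11.8%, against 5.75% and 2.80%). The E-box CACGTG was in 5 (7.35%, against 10.6% and 7.24%) and AGGTCA in 11 (16.2%, against 13.0% and 16.0%). Among the 44 members with a window that were higher in RE livers, 15 held CCGGAAG, and among the 24 others 9 did. AAGATGGC was in 9 of the 44 and 3 of the 24. The match of letters is a description and does not show that a factor binds there.

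Many members lie beside another gene. A protein-coding gene on the other strand started within 1000 bases of the start of 33 members, and 27 such partners were tested, Mrpl46 and Mrps11 being partners of each other. Of these partners 6 (22.2%) were higher and 1 lower in RE than in WT livers, a share near the 24.2% of all tested genes called higher. In KO against WT livers 8 partners (29.6%) were higher and 2 lower, beside 22.1% of all tested genes called higher. Of the 27 members beside them, 20 were higher in RE livers and 10 in KO livers. Mrpl32 and the proteasome gene Psma2 start 75 bases apart, and Psma2 did not pass (RE minus WT 0.06, adjusted p = 0.190). Mrpl41 and Pnpla7, a lysophospholipase gene, start 935 bases apart, and Pnpla7 was higher in RE livers by 0.40 (adjusted p = 0.00602) and in KO livers by 0.37 (adjusted p = 0.0106). Exons of 30 members overlap those of a neighbour, in 27 on the opposite strand, such as 4590 bases between Mrps25 and Nr2c2 and 1962 between Mrpl19 and Gcfc2, and reads there cannot be told apart without strand.

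Other genes of mitochondrial translation were described by lists, whose counts are read beside all tested genes, of which 24.2% were higher and 21.7% lower in RE livers, and 22.1% higher and 20.2% lower in KO livers. Of 6 mitoribosomal proteins under other symbols, all 6 were higher in RE than in WT livers and 3 in KO than in WT livers, with 0 lower in either. Dap3, a GTP-binding protein of the small subunit, was 0.29 higher in RE livers (log2; limma adjusted p = 1.79e-06) and 0.28 higher in KO livers (adjusted p = 4.49e-06). Ptcd3, another small-subunit protein, was 0.23 higher in RE livers (adjusted p = 7.88e-06). Of 27 tested genes for mitoribosome assembly and ribosomal RNA modification, 10 (37.0%) were higher in RE livers and 9 (33.3%) in KO livers, and 0 were lower. Among them Tfb1m and Mettl15, which methylate the small-subunit RNA, were higher by 0.48 and 0.60 in RE livers (adjusted p = 3.92e-09 and 6.17e-08) and by 0.39 and 0.57 in KO livers (3.60e-07 and 1.91e-07).

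Of 17 mitochondrial aminoacyl-tRNA synthetases, which load transfer RNAs, 12 (70.6%) were higher in RE livers and 11 (64.7%) in KO livers, and 0 were lower. Nars2 was higher by 0.42 in RE livers and 0.40 in KO livers (limma adjusted p = 3.72e-09 and 8.85e-09), and Fars2 by 0.49 and 0.43 (3.89e-08 and 6.22e-07). The 19 translation factors were divided, with 8 (42.1%) higher and 2 lower in RE livers and 5 (26.3%) higher and 3 lower in KO livers. The initiation factor Mtif3 was lower, at -0.20 in RE livers and -0.24 in KO livers (adjusted p = 2.14e-05 and 9.25e-07), as was the elongation factor Gfm1, at -0.19 and -0.21 (4.53e-05 and 1.10e-05). The 26 genes of mitochondrial transcription and RNA handling were also divided, with 7 (26.9%) higher and 4 lower in RE livers and 6 (23.1%) higher and 4 lower in KO livers.

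Mitochondrial ribosomes make subunits of complexes whose other subunits are encoded in the nucleus. Of 81 nuclear-encoded respiratory chain and ATP synthase subunits, 26 (32.1%) were higher and 3 lower in RE livers, and 12 (14.8%) higher and 4 lower in KO livers, with medians of 0.04 and 0.01 (log2). Of 80 cytosolic ribosomal protein genes, 75 were higher and 0 lower in RE livers, and 70 higher and 1 lower in KO livers, with medians of 0.28 and 0.24. The transcripts encoded in mitochondrial DNA were not analysed here.

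Of 12 regulators of nuclear genes for mitochondria, 1 (8.33%) was higher and 3 lower in both comparisons. Gabpa, the DNA-binding subunit of an ETS factor that acts on many such genes, averaged 6.61 ± 1.20 FPKM in RE livers, 6.93 ± 0.723 in KO livers and 8.33 ± 0.821 in WT livers (SD, n = 18 each). It was lower than in WT livers, at -0.31 in RE livers and -0.23 in KO livers (log2; limma adjusted p = 1.52e-05 and 0.000573). Yy1 was lower, at -0.31 and -0.23 (adjusted p = 8.36e-05 and 0.00333), as was the coactivator gene Ppargc1b, at -0.24 and -0.22 (0.000608 and 0.00162). Ppargc1b averaged 0.464 FPKM in RE livers, 0.482 FPKM in KO livers and 0.743 FPKM in WT livers. It was tested only because at least 1 group reached a mean of 1 FPKM. Its lower call, counted above, therefore lies near the floor and may follow from that filter. Ppargc1a, the relative of Ppargc1b, was higher by 0.27 and 0.32 (limma adjusted p = 0.00840 and 0.00231). Nrf1 did not pass, at -0.10 and -0.09 (0.183 and 0.257).

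Rhythms in these lists are read beside 46.8% of all tested genes called in RE livers and 34.8% in WT livers. In RE livers 2 of 6 mitoribosomal proteins under other symbols, 13 of 27 assembly genes, 8 of 17 synthetases, 8 of 19 translation factors, 6 of 26 genes of mitochondrial transcription and RNA handling, 6 of 12 regulators, 15 of 81 respiratory chain genes and 5 of 80 cytosolic ribosomal protein genes were called. In WT livers the counts were 1, 7, 4, 5, 9, 4, 7 and 1, so the transcription and RNA handling list had more calls in WT than in RE livers and the others fewer. In KO livers 0 were called in any of these lists. The RE counts use the pooled spread and bear the same limit as those of the members.

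Livers of 1 group also differed from each other in a shared way. After group means were removed, the mean Pearson correlation between pairs of members across the 54 livers was 0.39, against 0.59 for respiratory chain genes and 0.75 for cytosolic ribosomal protein genes. Over all tested genes the same mean was 0.00462. These values are descriptions. Genes measured in the same library share its depth and scaling, and the part of these was not tested. The members' mean log2(FPKM + 1) ran between 4.96 and 5.39 in RE livers, 4.82 and 5.30 in KO livers and 4.90 and 5.23 in WT livers, so single livers of a genotype lay farther apart than the differences between genotypes.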

How the data were processed

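RNA from 54 mouse livers was sequenced. The authors deposited 1 table of FPKM for 24346 gene symbols; reads were aligned to mm10 with TopHat, per the submitters' processing notes, and the tool that made the FPKM, its annotation and any use of strand were not given in the sources used here. FPKM hold no read numbers, so library depth is unknown and precision rests on the spread between livers. Each table column was assigned to its group by its name. Columns carry the numbers 0, 1 and 2, used here to name livers, and these are not the replicate numbers of the sample titles.

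Values were analysed as log2(FPKM + 1), which understates changes of low genes. A gene needed a group mean of 1 FPKM or more in at least 1 of the 18 groups, which kept 10932 for testing and left out 13414. A single linear model of the 18 groups was fitted (R 4.3.3, limma 3.58.1, 36 residual degrees of freedom), with Benjamini-Hochberg adjustment over all genes tested and a threshold of 0.05. Level differences were two-sided tests of the means over the 6 times, and 24 h rhythms and their differences were moderated F tests of cosine and sine contrasts. The steps were tested on simulated data.

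Members, lists and tests were chosen with earlier results of these data known. Named were the 5 members of highest and lowest mean, up to 8 called members of smallest adjusted p per comparison, the largest called changes and amplitudes, paralogs side by side, and up to 4 called genes per related list. The members differing between RE and KO livers at an unadjusted p and the neighbouring genes were named after their values were seen. Alternatives were the pseudocount, the filter, median-ratio and quantile scaling, fits on the compared genotypes alone, array weights, an F test over the 6 times and leaving out each liver. Promoter windows came from RefSeq (GRCm38.p6) and gene positions from GENCODE M21.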

Additional observations from a re-analysis of the deposited data

Results flagged for a closer look

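The 24 h rhythm of 3 members differed between genotypes by a test of the difference itself. For Mrpl47 the difference was 0.29 between RE and WT livers and 0.27 between KO and WT livers (log2; limma adjusted p = 0.00999 and 0.0240). For Mrps27 it was 0.32 between RE and WT livers and 0.40 between RE and KO livers (limma adjusted p = 0.0441 and 0.0287). For Mrps31 it was 0.21 between RE and WT livers (limma adjusted p = 0.0260). Among 77 members the counts of such differences were below the share over all tested genes.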

How the results depend on the processing

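Of 42 values of named members, 33 kept their call under every alternative, and 65 of 2668 alternative values missed the threshold. These members were named mostly for a small adjusted p or a large change, which favours calls that are kept. No level difference among them changed direction. Amplitudes and sizes of rhythm differences cannot be negative, so a change of direction could not occur for them. The median difference of all tested genes was 0.011 for RE and 0.001 for KO against WT (log2) without further scaling. Median-ratio and quantile scaling bring libraries to a shared level, so this median had little room to move. It is no check on the members. Higher against lower members were 45 against 0 for RE and 32 against 1 for KO with median-ratio scaling, and 45 against 1 and 38 against 1 with quantile scaling. Fits on the genotypes compared alone gave 14 rhythmic members in RE livers (beside 28.4% of all tested genes) and 23 in WT livers (beside 48.4%). They gave 0 rhythm differences between RE and KO livers (beside 0.0183%). Array weights gave 9 rhythmic members in KO livers (beside 7.54% of all tested genes) and 29 in WT livers (beside 57.3%). Rhythm differences with array weights were 19 for RE versus WT (beside 29.6%), 11 for KO versus WT (beside 24.4%) and 6 for RE versus KO (beside 15.9%). Level differences between RE and KO livers numbered 1 with array weights (beside 5.26%). Quantile scaling gave 22 rhythmic members in WT livers (beside 37.0% of all tested genes). Its rhythm differences were 3 for KO versus WT (beside 9.81%) and 2 for RE versus KO (beside 3.44%). The F test over all times gave 9 rhythmic members in WT livers (beside 23.5% of all tested genes). Its rhythm differences were 1 for RE versus WT (beside 7.59%), 2 for KO versus WT (beside 5.79%) and 0 for RE versus KO (beside 0.137%). No filter gave 0 rhythm differences for RE versus KO (beside 1.02%). The cause was not tested.

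Leaving out each of the 54 livers gave 26 to 40 rhythmic members in RE livers, 0 to 0 in KO livers and 9 to 15 in WT livers (9 without WT ZT8 liver 0). Rhythm differences ran between 1 and 4 for RE versus WT (1 without RE ZT8 liver 1, WT ZT8 liver 0 or WT ZT20 liver 0), between 0 and 2 for KO versus WT (0 without WT ZT12 liver 0 or 2, and 2 without KO ZT4 liver 2 or WT ZT4 liver 1), and between 0 and 3 for RE versus KO (3 without RE ZT8 liver 0). The RE versus KO count was 0 without RE ZT0 liver 2, RE ZT4 liver 0, RE ZT12 liver 0 or 2, KO ZT0 liver 2, KO ZT4 liver 1, or KO ZT12 liver 1 or 2. Level differences numbered 42 to 52 for RE versus WT, 31 to 43 for KO versus WT and 0 to 0 for RE versus KO. Of 4584 alternative counts for the related lists, 337 moved by over 1.5 times. No paired analysis was possible because the column numbers are not the labels' replicate numbers and nothing ties livers of different genotypes together. Depth is unknown, so counting error could not be given.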
